A study of Homo sapiens with 6 samples.

Results

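Spectrins are long rod-shaped proteins of the cytoskeleton beneath the cell membrane, and 5 of their genes, SPTBN5, SPTAN1, SPTBN1, SPTB and SPTBN4, are described here in 6 human tumor xenografts. They were taken by gene symbol from a table of 60606 genes, and each symbol matched 1 row. The set was selected on the TPM of SPTBN5, known to be near 0 in irradiated tumors and well above it in controls, so for these 5 genes the comparison of the groups is given as a description, without a test. Spectrins work as pairs of an alpha and a beta chain that join end to end into tetramers, and the tetramers link short actin filaments into a meshwork. Ankyrins, adducins and proteins of the 4.1 family fasten this meshwork to channels, transporters and adhesion molecules and stabilise its junctions. SPTAN1 encodes the alpha chain of cells other than red cells, SPTBN1 its common beta partner and an adaptor for SMAD signalling, SPTB the beta chain of red cells and muscle, SPTBN4 a beta chain known from axon initial segments and nodes of Ranvier, and SPTBN5 the giant beta chain, studied in photoreceptors and hair cells.

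RNA was sequenced from tumors that the human breast cancer line MDA-MB-231 (wild type) formed under the skin of NSG mice, an immunodeficient strain that keeps its own stroma, vessels and part of its myeloid cells. The control group (CT) held 3 tumors that were not irradiated. The irradiated group (RT) held 3 tumors that received 10 Gy of X-rays locally in 1 dose at a volume of about 800 mm3, and the mice were killed 3 days later. No volume or time of collection is given for the controls, no age or sex is given for the mice, and whether each tumor had its own animal is not stated, so the tests speak for the spread among these 6 samples alone. Levels are TPM values, shares of all transcripts scaled by transcript length, so they can be compared between genes. Between tumors they compare shares and not amounts, and the share of a gene also depends on the other genes of that tumor. Each difference is the irradiated mean less the control mean of log2(TPM + 1), a scale that shrinks the change of genes with low levels. Because each tumor was measured in bulk, fewer cells of a type and less RNA per cell cannot be told apart.

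In each tumor 13392 to 14218 genes were at 1 TPM or above, and read depth is unknown because TPM does not keep it. The columns fell short of the full TPM total by 0.143% to 0.198% (controls) and 0.523% to 0.774% (irradiated). Control tumor 2 stood apart in that ribosomal protein genes took 25.4% of its TPM, against 18.4% to 20.9% in the other 5 tumors. The 6 markers of MDA-MB-231 summed to 4915 to 6355 TPM in controls and 4025 to 4522 TPM after irradiation, led by VIM, and 0 of them passed the test. For 3 of the 6 (VIM, CD44 and AXL) every irradiated value lay below every control value, against 15.0% of all tested genes. Of 6 breast lineage genes low in this line, ESR1, PGR and CDH1 were under 1 TPM in all 6 tumors, while EPCAM, ERBB2 and KRT19 were measured, at up to 5.1, 40.73 and 296.8 TPM. Of the 14140 genes tested with limma (mean TPM of 1 or more), 2.98% passed an adjusted p of 0.05 (Benjamini-Hochberg). By direction, 1.37% were higher and 1.61% lower in irradiated tumors.

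The sequences before the start sites of 3 of the genes are shown first, to set the start region of SPTBN5, the gene with the large difference, beside those of SPTAN1 and SPTBN1, the abundant alpha and beta chains. Each is the 250 bases before a RefSeq gene start (GRCh38.p14), with every CG dinucleotide in capitals. These 3 RefSeq starts lie inside the gene bounds of the annotation used below, so the last bases of each window are within those bounds. The gene starts of that annotation are 41894077 (SPTBN5), 128552558 (SPTAN1) and 54456285 (SPTBN1). The windows are chr15:41894054-41894303 on the minus strand for SPTBN5, chr9:128552337-128552586 on the plus strand for SPTAN1, and chr2:54456077-54456326 on the plus strand for the upstream of 2 SPTBN1 starts.
SPTBN5: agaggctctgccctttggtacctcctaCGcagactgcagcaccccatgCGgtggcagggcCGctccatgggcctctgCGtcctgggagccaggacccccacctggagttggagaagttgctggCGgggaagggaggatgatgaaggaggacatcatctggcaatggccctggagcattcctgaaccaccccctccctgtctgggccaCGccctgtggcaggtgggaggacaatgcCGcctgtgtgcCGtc
SPTAN1: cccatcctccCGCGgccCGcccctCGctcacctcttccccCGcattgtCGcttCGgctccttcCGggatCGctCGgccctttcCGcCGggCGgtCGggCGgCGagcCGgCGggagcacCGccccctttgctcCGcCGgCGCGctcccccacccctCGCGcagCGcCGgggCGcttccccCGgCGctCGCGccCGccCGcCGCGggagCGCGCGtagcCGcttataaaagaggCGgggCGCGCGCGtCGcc
SPTBN1: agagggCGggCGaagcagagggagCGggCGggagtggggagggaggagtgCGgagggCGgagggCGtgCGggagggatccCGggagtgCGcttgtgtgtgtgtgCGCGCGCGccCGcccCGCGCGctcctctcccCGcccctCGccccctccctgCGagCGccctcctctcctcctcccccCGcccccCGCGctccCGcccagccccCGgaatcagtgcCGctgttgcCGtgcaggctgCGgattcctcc
The SPTBN5 window held 8 CG dinucleotides and 64.8% G and C, against a median of 11 and 58% over 35116 RefSeq promoter windows of the same length, and 43.7% of them held fewer CG. The SPTAN1 window held 46 CG dinucleotides and 79.2% G and C, more CG than 99.6% of the windows. The SPTBN1 window held 30 CG dinucleotides and 77.2% G and C, more CG than 87.6%. Among the starts not shown, the downstream of 2 SPTB starts also held 8 CG dinucleotides, with 65.6% G and C, so this count was not particular to SPTBN5. The upstream SPTB start held 22, the downstream SPTBN1 start 29, and the 2 SPTBN4 starts 28 and 24. The letters TATAAA, searched on both strands, occurred once among the 3 windows shown and in 10.7% of all windows. The match in SPTAN1 starts 29 bases before the RefSeq start, in the part of the window inside the gene bounds of the other annotation. The letters GGGCGG, the core of GC boxes, occurred 5 times in SPTAN1, 7 times in SPTBN1 and 0 times in SPTBN5 on either strand, and at least once in 42.6% of all windows. These matches describe the letters in the windows and say nothing of which factors bind there.

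SPTBN5 (ENSG00000137877) lies on the minus strand of chromosome 15 from 41848144 to 41894077 (GRCh38), with 2 transcripts in GENCODE release 29. Of these, 1 is a messenger RNA of 11725 bases and 1 is a retained-intron form of 962 bases. SPTBN5 stood at 25.8, 16.19 and 34.57 TPM in control tumors 1, 2 and 3 and at 0.55, 0.66 and 0.27 TPM in irradiated tumors 1, 2 and 3. All 3 controls were high, all 3 irradiated tumors were low, and the lowest control was 24.5 times the highest irradiated tumor. Within a group the values spread by much less, with the highest 2.14 times the lowest among controls and 2.44 times among irradiated tumors. The means were 25.5 ± 9.19 TPM (SD, n = 3) and 0.493 ± 0.201 TPM (SD, n = 3), 51.7 times higher in controls, and the difference was -4.10 on the log2(TPM + 1) scale. That difference ranked 8 from the lowest of 14140 tested genes, and 3 from the lowest of 11844 protein-coding genes with a symbol, ranks that follow from how the gene was picked. The transcript was still listed above 0 in every irradiated tumor.

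**Figure D1:**
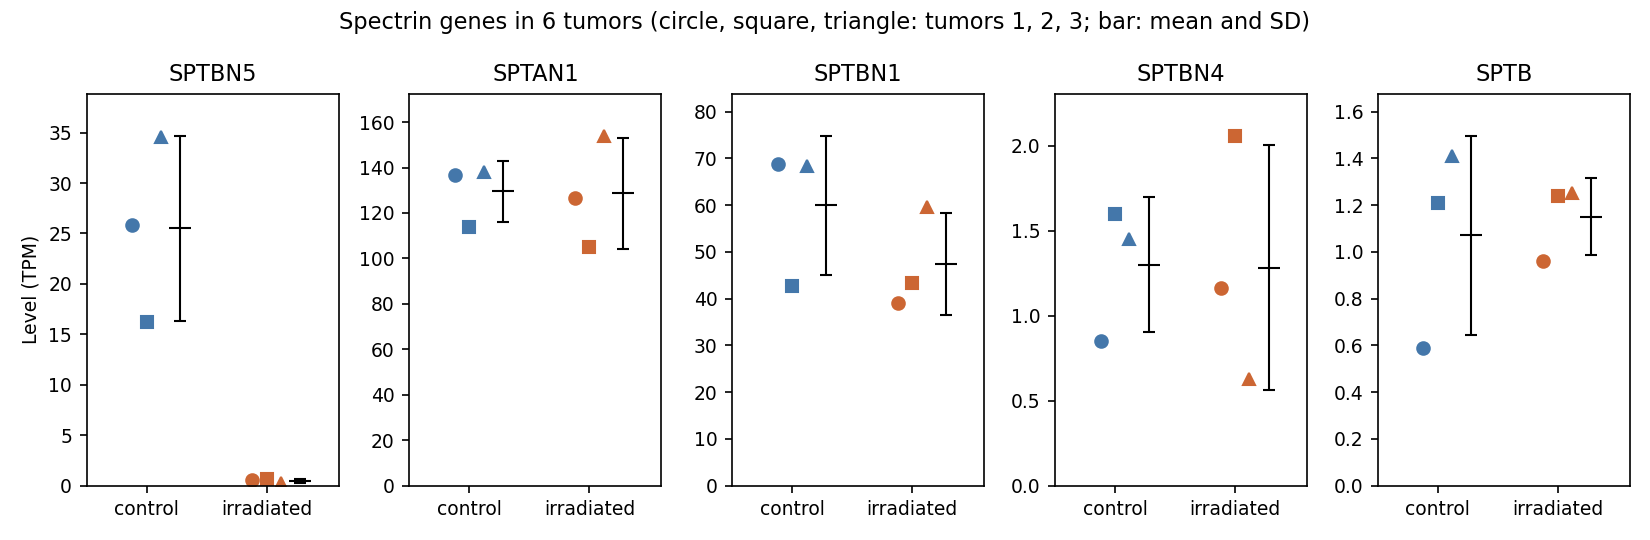
Level in TPM (vertical axes, 1 scale per gene) of SPTBN5, SPTAN1, SPTBN1, SPTBN4 and SPTB in 3 control and 3 irradiated tumors, with circle, square and triangle for tumors 1, 2 and 3 of a group and bars for the mean and SD. SPTBN5 lies at 16.19 TPM or more in every control and at 0.66 TPM or less in every irradiated tumor, whereas the groups overlap for the other 4 genes.

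SPTAN1 (ENSG00000197694, chromosome 9, plus strand, 128552558 to 128633662), the alpha chain, was the most abundant of the 5 in every tumor. It stood at 136.75, 113.86 and 137.94 TPM in control tumors 1, 2 and 3 and at 126.63, 105.14 and 154.09 TPM in irradiated tumors 1, 2 and 3. The groups overlapped, with tumor 2 the lowest and tumor 3 the highest in both. The means were 129.5 ± 13.6 and 128.6 ± 24.5 TPM (SD, n = 3 each). The difference was -0.022, and it was 0.030 after scaling by medians of ratios and 0.025 after quantile normalization, and with each tumor left out it ranged from -0.16 to 0.11, so its sign did not hold.

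SPTBN1 (ENSG00000115306, chromosome 2, plus strand, 54456285 to 54671445), the common beta chain, stood at 68.9, 42.8 and 68.29 TPM in control tumors 1, 2 and 3 and at 39.05, 43.3 and 59.69 TPM in irradiated tumors 1, 2 and 3. Control tumor 2 lay among the irradiated values, and the groups overlapped. The means were 60.0 ± 14.9 and 47.3 ± 10.9 TPM (SD, n = 3 each), a difference of -0.33, and with single tumors left out it came to -0.55 (control 2 omitted), -0.50 (irradiated 3), -0.22 (control 3), -0.21 (control 1) and -0.20 (irradiated 1).

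SPTBN4 and SPTB were near 1 TPM in most tumors. SPTBN4 (ENSG00000160460, chromosome 19, plus strand, 40466241 to 40576464), the axonal beta chain, stood at 0.85, 1.6 and 1.45 TPM in control tumors 1, 2 and 3 and at 1.16, 2.06 and 0.63 TPM in irradiated tumors 1, 2 and 3. The irradiated tumors held both its highest and its lowest value, with means of 1.30 ± 0.397 and 1.28 ± 0.723 TPM (SD, n = 3 each) and a difference of -0.043. SPTB (ENSG00000070182, chromosome 14, minus strand, 64746283 to 64879907), the red cell and muscle beta chain, stood at 0.59, 1.21 and 1.41 TPM in control tumors 1, 2 and 3 and at 0.96, 1.24 and 1.25 TPM in irradiated tumors 1, 2 and 3. The irradiated values lay within the range of the controls, with means of 1.07 ± 0.428 and 1.15 ± 0.165 TPM (SD, n = 3 each) and a difference of 0.074. With each tumor left out the differences of SPTBN4 ranged from -0.28 to 0.18 and those of SPTB from -0.11 to 0.19, so neither sign held. Exons of SPTB overlap exons of PLEKHG3 on the opposite strand, which stood at 7.34 to 11.73 TPM, and whether reads were assigned by strand is not given in the sources used here, so the low SPTB values are uncertain. SPTBN5 shares no exon sequence with a gene on its own strand, but the antisense gene AC020659.1 overlaps its first 1285 bases and stood at 0.16 to 0.71 TPM over the 6 tumors.

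All 5 genes passed the filter on low values, SPTB with a mean of 1.11 TPM and SPTBN4 with 1.29 TPM just inside it. SPTBN5, with an irradiated mean of 0.493 TPM, passed it through its controls. The groups did not overlap for 1 of the 5, SPTBN5, which the choice of the gene fixed, and they did not overlap for 26.6% of all tested genes. In the controls the order of mean levels from the top was SPTAN1, SPTBN1, SPTBN5, SPTBN4 and SPTB. In the irradiated tumors it was SPTAN1, SPTBN1, SPTBN4, SPTB and SPTBN5. Apart from SPTBN5, neighbours in this order were compared within tumors by an exact two-sided sign-flip permutation test, 3 comparisons in all. The order was taken from the same 6 tumors, so the p-values are no independent test of it. SPTAN1 exceeded SPTBN1 in 6 of 6 tumors, by 1.28 ± 0.260 on the log2(TPM + 1) scale (SD, n = 6, exact permutation p = 0.03125, adjusted p = 0.0469). SPTBN1 exceeded SPTBN4 in 6 of 6 tumors, by 4.57 ± 0.603 (SD, n = 6, exact permutation p = 0.03125, adjusted p = 0.0469). SPTBN4 was above SPTB in 5 of 6 tumors, by 0.10 ± 0.310 (SD, n = 6, exact permutation p = 0.469, adjusted p = 0.469), a difference smaller than its spread. The smallest p this test can give with 6 tumors is 0.03125, so with any tumor left out no comparison can pass.

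The 4 beta chain genes SPTBN1, SPTBN5, SPTBN4 and SPTB summed to 96.14, 61.8 and 105.7 TPM in control tumors 1, 2 and 3, whereas in irradiated tumors 1, 2 and 3 they summed to 41.72, 47.26 and 61.84 TPM. The groups overlapped in this sum, since control tumor 2 (61.8 TPM) lay just below irradiated tumor 3 (61.84 TPM). SPTBN5 made up 26.8%, 26.2% and 32.7% of this sum in the controls (28.6% ± 3.58, SD, n = 3) and 1.32%, 1.40% and 0.437% in the irradiated tumors (1.05% ± 0.533, SD, n = 3). SPTBN1 made up 68.5% ± 3.59 and 93.9% ± 2.47 (SD, n = 3 each). Of these 4 genes, SPTBN5 was the second by level in every control and the last in every irradiated tumor.

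Transcripts of these beta chains per SPTAN1 transcript came to 0.703, 0.543 and 0.766 in the controls and to 0.329, 0.450 and 0.401 in the irradiated tumors. The groups did not overlap in this ratio. Without SPTBN5 the ratios were 0.514, 0.401 and 0.516 in the controls and 0.325, 0.443 and 0.400 in the irradiated tumors, and there control tumor 2 lay below irradiated tumor 2. The means went from 0.671 ± 0.115 and 0.393 ± 0.0604 with SPTBN5 to 0.477 ± 0.0661 and 0.389 ± 0.0597 without it (SD, n = 3 each). These sums and ratios contain SPTBN5 or were formed because of it, and so carry no test.

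**Figure D2:**
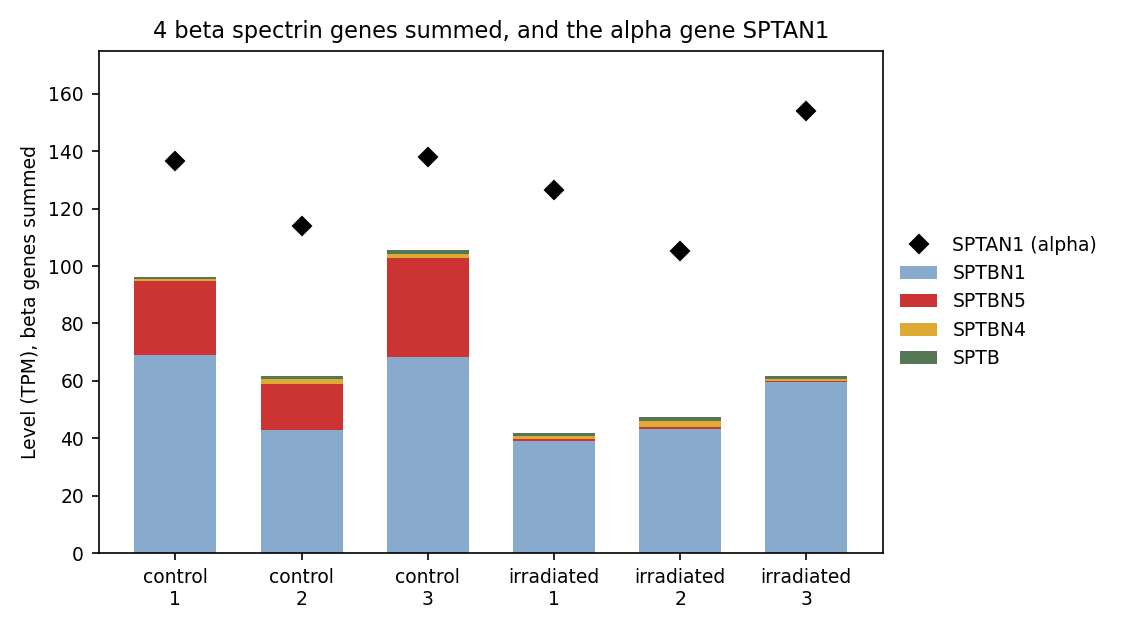
Level in TPM of 4 beta spectrin genes stacked for each of the 6 tumors, with the alpha gene SPTAN1 as a diamond. The SPTBN5 segment is 16.19 to 34.57 TPM in controls, against 0.27 to 0.66 TPM in irradiated tumors, while the SPTAN1 diamonds of the groups overlap.

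The partners of spectrin were read from 9 lists with 63 genes, of which 52 passed the filter. With limma, 0 of the 52 rose, 1 fell and 51 did not pass (adjusted p, Benjamini-Hochberg over 14140 genes), against 1.37% and 1.61% of all tested genes. At an unadjusted p under 0.05 there were 15 of the 52, and 2896 of all tested genes. The median difference of the 52 was -0.099, with 35 below 0, and that of all tested genes was -0.056. The groups did not overlap in 10 genes that were lower and 3 that were higher in irradiated tumors, against 15.0% and 11.6% of all tested genes. Of the 10, TMOD1 and ACTN2 had irradiated means of 0.85 and 0.783 TPM and passed the filter through their controls.

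The 1 gene that fell was ACTG1, the cytoplasmic gamma actin that, with beta actin, builds the short filaments at spectrin junctions. It stood at 4080, 3670 and 4042 TPM in control tumors 1, 2 and 3 and at 2067, 1957 and 2890 TPM in irradiated tumors 1, 2 and 3, with no overlap. The means were 3931 ± 227 and 2305 ± 510 TPM (SD, n = 3 each), a difference of -0.79 (limma adjusted p = 0.0447). The call is close to the threshold: the adjusted p was 0.0470 without control tumor 2 and 0.0227 without irradiated tumor 3, and 0.140, 0.126, 0.165 and 0.141 without control tumor 1, control tumor 3, irradiated tumor 1 and irradiated tumor 2. It was 0.0791 after scaling by medians of ratios, 0.075 after quantile normalization, 0.0542 with a pseudocount of 5 TPM, 0.186 without the filter, 0.0946 without the trend and 0.0618 with a replicate block.

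ACTG1 belonged to the list of short actin filaments, 7 of whose 8 genes were measured. All 7 had differences below 0, also under both other scalings, with a median of -0.42, and for 6 of the 7 genes every irradiated value lay below every control value. Over all tested genes, 55.7% had differences below 0 and 15.0% were lower without overlap. Beta actin (ACTB) stood at 4562 to 5809 TPM in controls, against 3851 to 4427 TPM in irradiated tumors, a difference of -0.36 (limma adjusted p = 0.187). The tropomyosins TPM3 and TPM4, which lie along the filaments, differed by -0.40 (adjusted p = 0.227) and -0.42 (adjusted p = 0.105). Tropomodulin 3 (TMOD3), which caps the filament ends, differed by -0.53 (adjusted p = 0.146). Dematin (DMTN), which bundles actin at the junctions, overlapped between groups and differed by -0.22 (adjusted p = 0.603). ACTB, TPM3, TPM4, TMOD1, TMOD2, TMOD3 and DMTN are outside the rule for named genes and were chosen after their values were seen.

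Ankyrins and adducins gave 0 calls in 3 measured genes each. With 2.98% of all tested genes called, 0 is the likeliest count in lists this small. ANK3, or ankyrin-G, the partner of SPTBN4 at axon initial segments, stood at 11.83, 5.36 and 7.66 TPM in controls, against 10.77, 12.12 and 9.18 TPM in irradiated tumors, a difference of 0.38 (limma adjusted p = 0.459). ADD1 and ADD3, adducins that cap actin and recruit spectrin to it, differed by -0.089 (adjusted p = 0.784) and 0.087 (adjusted p = 0.853). The protein 4.1 family, which tightens the bond of spectrin to actin, also gave 0 calls in 7 measured genes, 5 of them above 0, with a median of 0.14. Without control tumor 2 only 2 of the 7 were above 0, with a median of -0.0070. EPB41 differed by -0.30 (adjusted p = 0.516). EPB41L2 differed by -0.46 (adjusted p = 0.201), and its adjusted p without control tumor 2 was 0.0461. Leaving out that tumor also gave calls to ADD2 and TPM3, lower in irradiated tumors, and to EPB41L3, higher there.

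Of 12 measured proteins that carry spectrin repeats without being spectrins, 0 passed the test, against 2.98% of all tested genes. The median of their differences was -0.21, against -0.056 over all tested genes. Below 0 were 11 of the 12, against 55.7% of all tested genes, but only 7 after scaling by medians of ratios or by quantiles. The widely expressed alpha-actinins ACTN1 and ACTN4, which cross-link actin, differed by -0.032 (limma adjusted p = 0.941) and -0.0052 (adjusted p = 0.988), and both signs turned under those scalings. The muscle alpha-actinin ACTN2 stood at 4.12, 5.39 and 14.46 TPM in controls, against 0.05, 2.14 and 0.16 TPM in irradiated tumors, a difference of -2.35 (adjusted p = 0.0560). ACTN3, its fast-fibre relative, stood at 5.16, 6.55 and 14.71 TPM in controls, against 0.04, 5.16 and 0.02 TPM in irradiated tumors, a difference of -2.27 (adjusted p = 0.119). Without irradiated tumor 2, the highest of its group for both, their adjusted p was 0.0392 and 0.0189. The skeletal muscle markers, of which ACTN3 is 1, summed to 148.0, 199.4 and 415.0 TPM in controls 1, 2 and 3 and to 1.54, 105.2 and 2.24 TPM in the irradiated tumors, with the same tumor highest in each group as for ACTN2 and ACTN3, and their part in these differences was not tested. ACTN2 and ACTN3 were named after their values were seen.

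The remaining lists, each short, also gave 0 calls, against 2.98% of all tested genes. Of 7 proteases that cleave spectrin, with their inhibitor, 7 were measured and the median was 0.093, and CAPN2, the large subunit of m-calpain, differed by -0.21 (limma adjusted p = 0.477). Of 3 SMAD proteins, 3 were measured, and SMAD3, a transforming growth factor beta effector that SPTBN1 binds, differed by 0.38 (adjusted p = 0.492). The SMAD3 difference was 0.035 without control tumor 2 and 0.68 without control tumor 3. Among 12 membrane anchors, 7 were measured, with a median of 0.011. Of 7 Usher and motor proteins linked to SPTBN5 in sensory cells, only MYO7A, KIF3A and DYNC1H1 were measured, with differences of -0.0079, -0.18 and -0.38. The Usher genes USH1C, USH1G, CDH23 and PCDH15 did not exceed 0.63 TPM in any tumor.

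**Figure D3:**
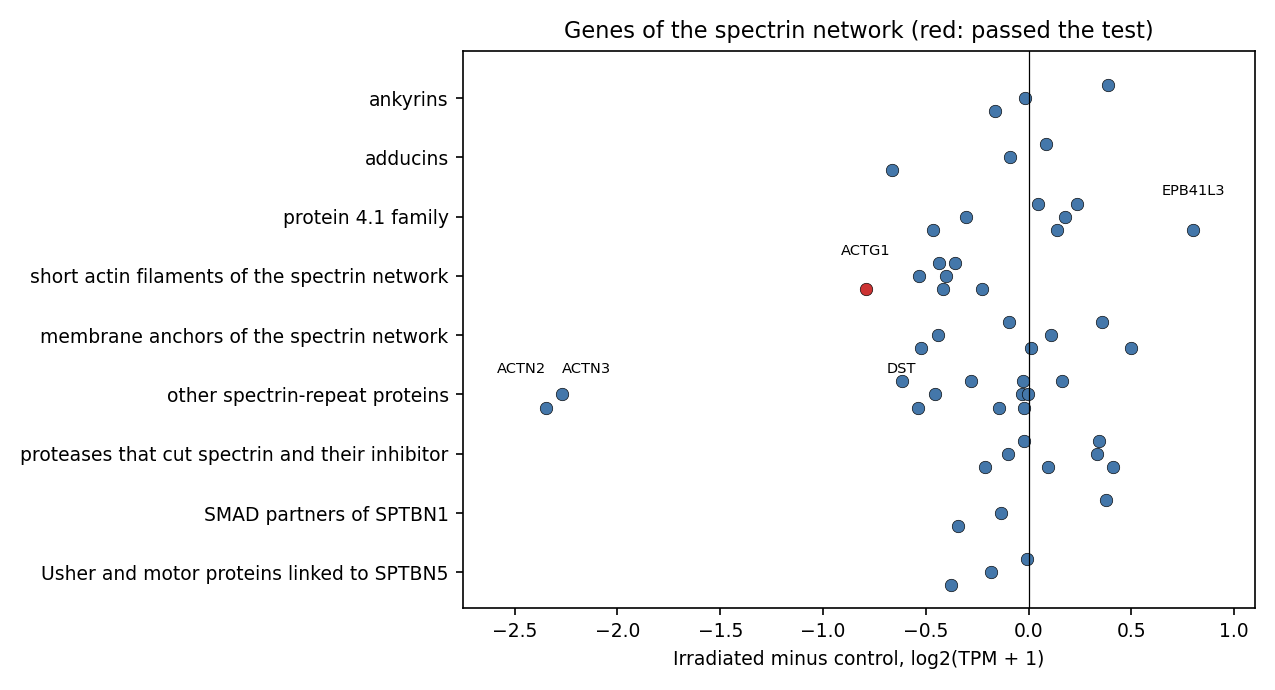
Difference between irradiated and control tumors on the log2(TPM + 1) scale (horizontal axis) for the 52 measured genes of the 9 lists (rows), 1 point per gene, red where limma passed the threshold and blue where it did not. ACTG1 at -0.79 is the red point, and the points farthest left, ACTN2 at -2.35 and ACTN3 at -2.27, did not pass.

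None of the measured genes around SPTBN5 passed the test. Within 200 kb on either side the annotation has 19 genes, of which 5 were measured. Of the 5, 0 were called by limma, against 2.98% of all tested genes. At an unadjusted limma p under 0.05 there were 2 of the 5, and 2896 of the 14140 tested genes. The nearest upstream, EHD4, which encodes an ATPase of endocytic recycling, lies on the same strand and ends 1861 bases before the SPTBN5 start. EHD4 stood at 10.25, 7.09 and 10.33 TPM in control tumors 1, 2 and 3 and at 17.91, 17.18 and 16.35 TPM in irradiated tumors 1, 2 and 3. Its groups did not overlap and were higher in irradiated tumors, opposite to SPTBN5, with a difference of 0.84 (limma adjusted p = 0.0545). The adjusted p was 0.0456 with a minimum mean of 5 TPM, 0.0236 after scaling by medians of ratios, 0.02 after quantile normalization and 0.0497 without control tumor 2. Under the other alternatives EHD4 did not pass, with adjusted p from 0.0516 (a pseudocount of 0.1 TPM) to 0.195 (without irradiated tumor 1).

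On the other side, JMJD7, a hydroxylase of the Jumonji family, differed by 0.64 (limma adjusted p = 0.201), with 1.33, 1.79 and 2.34 TPM in controls, against 2.83, 3.04 and 4.31 TPM in irradiated tumors. MAPKBP1, a scaffold of JNK signalling, differed by -0.18 (adjusted p = 0.817), and MGA, a MAX dimerisation partner, by 0.43 (adjusted p = 0.370). PLA2G4B, a cytosolic phospholipase, touches the end of SPTBN5 by 4 bases on the opposite strand, and was named for that overlap. It stood at 0.57, 0.25 and 1.03 TPM in controls, against 0.88, 0.5 and 3.16 TPM in irradiated tumors (difference 0.52, adjusted p = 0.518).

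**Figure D4:**
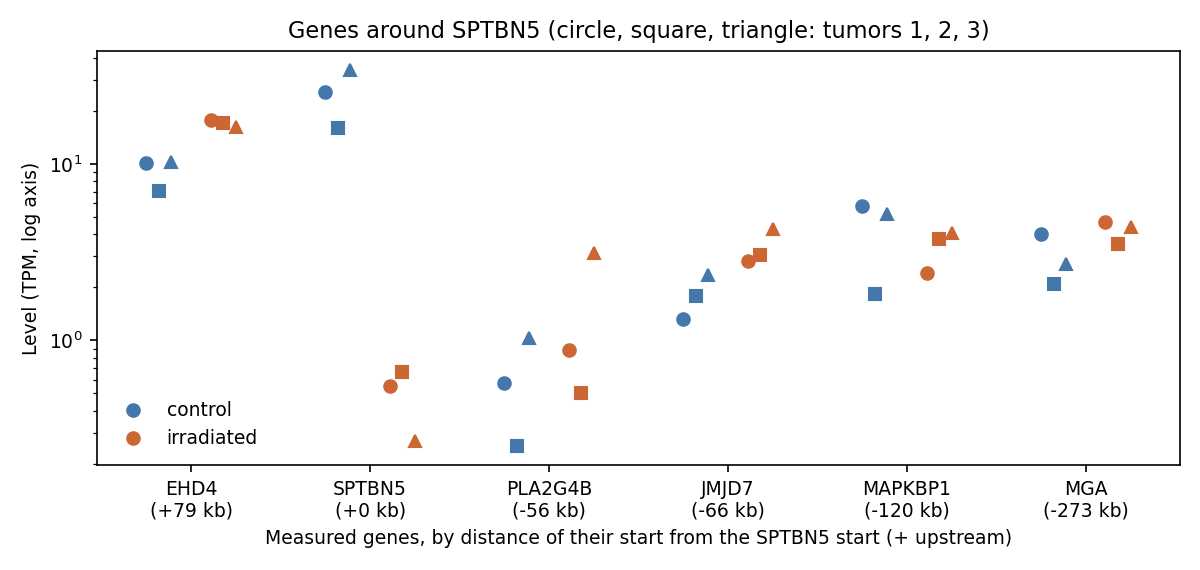
Level in TPM (log axis) of SPTBN5 and the 5 measured genes around it in 3 control and 3 irradiated tumors, ordered by the distance of their start sites from that of SPTBN5. SPTBN5 is at 0.27 to 0.66 TPM in irradiated tumors, while EHD4 next to it is at 16.35 to 17.91 TPM there.

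The protein-coding genes whose levels followed SPTBN5 most closely were found by Pearson correlation of log2(TPM + 1) over the 6 tumors, given as a description. All correlations share the same 6 columns, whose values for SPTBN5 form 2 separate groups, so r is high for any gene that separates those groups in the same direction. The top 6 were EMC6 (r = 0.9987), a subunit of the membrane protein complex of the endoplasmic reticulum, ANP32B (0.9986), a histone chaperone, FKBP1C (0.9970), PSMA1 (0.9964), a proteasome subunit, P2RX5-TAX1BP3 (0.9951), a readthrough transcript, and HDGFL3 (0.9947). Of 14139 other genes, 22 reached an r of 0.99 and 261 an r of 0.95. The sizes of their differences varied. EMC6 stood at 130.6 ± 6.01 TPM in controls, against 96.9 ± 0.867 TPM in irradiated tumors (SD, n = 3 each), a difference of -0.43. P2RX5-TAX1BP3 stood at 33.2 ± 8.61 and 2.10 ± 0.425 TPM, a difference of -3.44, against -4.10 for SPTBN5. FKBP1C stood at 4.49, 3.93 and 6.15 TPM in controls and was listed at 0 in all 3 irradiated tumors.

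To set the size of the SPTBN5 difference beside the table, genes with at least 1 TPM in all 3 controls and at most 0.1 TPM in all 3 irradiated tumors were counted. There were 22, of which 9 were protein-coding, 6 were pseudogenes, 5 were other noncoding genes and 2 were not in the annotation, and 7 shared exon sequence with another gene on their strand. The reverse pattern held for 29 genes. SPTBN5 was in neither count, since it stayed at 0.27 to 0.66 TPM. The 10 named genes with the highest control means were RPL41P5, IL1RAPL2, CEACAM6, NPM1P51, ABALON, FAM47E-STBD1, FKBP1C, MIRLET7A2, TECRP1 and TLR8. RPL41P5, a ribosomal protein pseudogene, stood at 65.99 to 80.14 TPM in controls, and IL1RAPL2, a receptor of the interleukin-1 receptor family, at 16.02 to 16.79 TPM. In reverse, PIGY, chosen after its values were seen, was listed at 0 in all 3 controls and at 36.41 to 41.73 TPM in irradiated tumors. Whether both groups went through the same processing is not given in the sources used here. The part of processing in such patterns, in the difference between groups in the TPM totals and in the SPTBN5 values was not tested. With limits of at least 10 TPM and at most 1 TPM, chosen after seeing the data, there were 5 such genes, SPTBN5, RPL41P5, IL1RAPL2 and 2 without a symbol, and 9 in reverse.

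**Figure D5:**
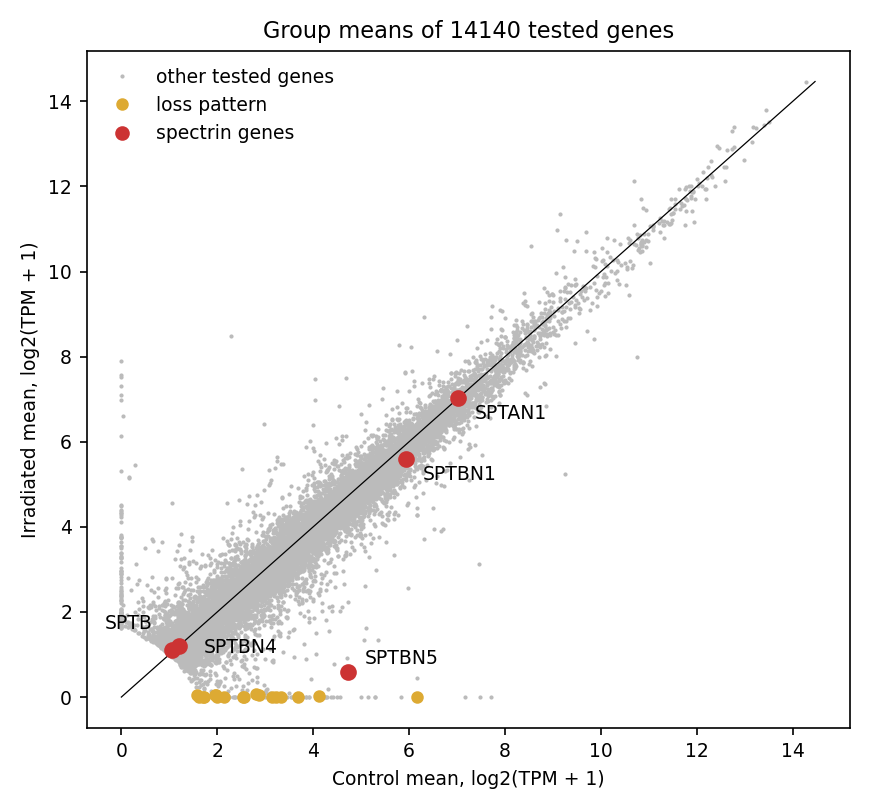
Log2(mean TPM + 1) of the 14140 tested genes in control (horizontal) and irradiated tumors (vertical), with the line of equal means, the 5 spectrin genes in red and the tested genes of the loss pattern in yellow. SPTAN1, SPTBN1, SPTBN4 and SPTB lie near the line, and SPTBN5 lies far below it, above the row of genes at or near 0 in irradiated tumors.

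Markers of other cells of the graft were summed beside the spectrins. The 14 skeletal muscle markers summed to 148.0, 199.4 and 415.0 TPM in control tumors 1, 2 and 3, and in irradiated tumors 1, 2 and 3 to 1.54, 105.2 and 2.24 TPM. Of the 12 measured, 3 fell with limma (MYH1, MYH4 and CASQ1, myosins and a calcium-binding protein of muscle, adjusted p = 0.0437, 0.0437 and 0.0337), against 1.61% of all tested genes. Lower without overlap between the groups were 10 of the 12, against 15.0%. MYH2, MYH7 and CASQ1 were under 1 TPM in all 3 irradiated tumors, and MYH1 stood at 0, 2.55 and 0.02 TPM there. These genes passed the filter through their controls, so both counts depend in part on the filter. In irradiated tumor 2, with muscle markers at 105.2 TPM, SPTBN5 was at 0.66 TPM, against 0.55 and 0.27 TPM in the irradiated tumors with 1.54 and 2.24 TPM. The 10 fibroblast markers summed to 481.6 to 1023 TPM in controls, against 134.7 to 220.6 TPM in irradiated tumors, and COL1A1, COL1A2 and COL3A1, which encode fibrillar collagens and made up most of these sums, fell among 6 measured (limma adjusted p = 0.0194, 0.0112 and 0.0151). The other 3 measured did not pass: FBLN1 differed by -1.29, DCN by -0.084, and PDGFRB by 0.95, higher in irradiated tumors (adjusted p = 0.0834, 0.957 and 0.211). Of these 6, 4 were lower without overlap. The part of fibroblast and muscle RNA in the SPTBN5 values was not tested.

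The 9 red cell markers summed to 0.29 to 5.39 TPM in controls, against 0.13 to 0.65 TPM in irradiated tumors, with HBA1, KLF1 and GATA1 at 0 in every tumor. The 8 neuron and glia markers summed to 7.55 to 10.3 and 8.92 to 13.2 TPM, and the 9 endothelial markers to 4.43 to 9.49 and 4.93 to 22.5 TPM. The 5 adipocyte markers summed to 0.35 to 0.99 and 1.48 to 3.74 TPM, and the 7 macrophage and leukocyte markers to 82.3 to 104.0 and 96.6 to 192.6 TPM. CD68 alone made up most of the macrophage and leukocyte sums, at 74.92 to 94.19 TPM in controls and 91.21 to 187.06 TPM in irradiated tumors. It differed by 0.61, whereas the other measured markers of that list, CSF1R, LYZ and AIF1, differed by -0.13, -0.99 and -0.42. None of the red cell, neuron and glia, endothelial, macrophage and leukocyte, and adipocyte markers that were measured passed limma. Whether mouse reads were removed is not given in the sources used here, so the share of host RNA in any of these values is unknown.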

How the data were processed

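Gene levels came from 1 table of the series, with 6 columns named for the tumors (0 columns were left unused). The authors deposited them as TPM, to 2 decimals. Per the submitters' processing notes the tools were HISAT2, StringTie and RSEM and the build hg38, without versions. Which annotation release was used, whether counting was stranded, and whether mouse reads were removed: not given in the sources used here. Libraries were made from total RNA with a TruSeq kit, per the labels' protocols. TPM keeps no depth, so counting intervals, floors and count tests were not used.

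Coordinates, gene types, transcripts and overlaps came from GENCODE release 29 (GRCh38), which holds 58396 of the 60606 gene identifiers and need not be the authors' release. Promoter sequences are RefSeq's (GRCh38.p14), and all 5 spectrin genes matched.

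Irradiated tumors were set against controls in limma 3.58.1 under R 4.3.3 (linear model, empirical Bayes with trend, two-sided) on log2(TPM + 1), with group as the only term, over the 14140 genes whose mean TPM was 1 or more, and Benjamini-Hochberg adjustment at 0.05 over all of them. Every adjusted p of a single gene comes from limma. Measured genes are those that passed that filter, and a gene rose or fell where it passed the test. The fit was also run on simulated data with normally distributed values, which does not show whether the calls in these tumors are right. Sums, ranks and exact tests used Python 3.11.15, pandas 2.3.3 and numpy 2.4.6.

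The spectrin genes, the gene lists and the rules were chosen with earlier results of these data known. The rule for named genes takes the 5 spectrin genes. It takes up to 4 called genes of each list, and ANK3, ADD1, ADD3, EPB41, EPB41L2, ACTN1, ACTN4, CAPN2 and SMAD3 whatever their test. It also takes the nearest 3 measured genes on each side of SPTBN5 (1 was found upstream), the 6 most correlated protein-coding genes and up to 10 genes with a loss. Some genes of the lists are not reported here. Alternatives were other pseudocounts, filters, scalings and variance models, fits with a replicate block or with 1 tumor left out, and other limits for the loss pattern.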

Additional observations from a re-analysis of the deposited data

How the results depend on the processing

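The SPTBN5 difference of -4.10 was -5.43 with a pseudocount of 0.1 TPM and -2.43 with 5 TPM, and -4.38 to -3.85 with each tumor left out. Its share of the TPM of the 4 beta chains was 26.5% to 29.8% in controls and 0.878% to 1.36% in irradiated tumors with each tumor left out. SPTB and SPTBN4 have no value with a minimum mean of 5 TPM. The number of called genes was 421 (194 higher, 227 lower). It was 133 (69 higher, 64 lower) without a filter, 279 (142 lower) without the trend, 313 higher after quantile normalization, and 127 to 791 (57 to 229 higher, 67 to 562 lower) with each tumor left out, which also lowers the number of samples. The highest of these, 791, was without control tumor 2, with 229 higher and 562 lower, so that 28.95% of the calls were higher in place of 46.1%. The median of all genes was -0.0095 after scaling by medians of ratios and -0.0027 after quantile normalization. Of the spectrin network, 0 genes were called lower with a pseudocount of 5 TPM, without a filter, after either scaling, without the trend and with the replicate block. With each tumor left out 0 to 4 were called lower and 0 to 1 higher. Near SPTBN5, 1 gene (EHD4) was called with a minimum mean of 5 TPM and after either scaling, and 0 to 1 with each tumor left out. The loss pattern held for 50 genes at a lower limit of 0.5 TPM, 10 at an upper limit of 2 TPM and 5 at 10 and 1 TPM, and the reverse for 54, 16 and 9. The steps from SPTAN1 to SPTBN1 and from SPTBN1 to SPTBN4 were 1.20 to 1.34 and 4.44 to 4.71 with each tumor left out, and adjusted p was then 0.0625 to 0.0938, since fewer tumors allow no smaller p. ACTN1 turned to 0.020 and 0.023, and ACTN4 to 0.047 and 0.042, after medians of ratios and quantile normalization. With each tumor left out, ADD1 ranged from -0.16 to 0.035, ADD3 from -0.080 to 0.25, ACTN1 from -0.17 to 0.13, ACTN4 from -0.056 to 0.074 and MAPKBP1 from -0.58 to 0.052. Over 29 tested named genes and 394 alternative values, 339 kept their direction and side of the threshold, 38 lost the call, 6 gained it and 11 turned. The 29 include the genes picked by correlation with SPTBN5 and those of the loss pattern. These were chosen for separating the groups in these same tumors, so their steady direction follows from that choice. Where no cause is given, the cause was not tested.

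The labels give both groups the numbers 1 to 3 but tie no tumors together. Deviations of same-numbered tumors correlated at -0.043, -0.046 and -0.059 over genes, and those of unlike-numbered tumors at -0.031 to 0.075. With only 3 tumors per group, these correlations cannot show whether same-numbered tumors shared an animal or a batch. With a replicate block, 185 genes were called, 88 higher and 97 lower.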
